A study of Mus musculus with 12 samples.

Results

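The genes that encode the enzymes writing and erasing histone H3 lysine 4 (H3K4) methylation are themselves marked by this modification at their promoters, and their own H3K4me3 peaks were examined in sorted cardiomyocyte (CM) nuclei with and without Cpt1b. The members were chosen by name: every autosomal peak whose deposited gene name was Kmt2a, Kmt2b, Kmt2c, Kmt2d, Setd1a, Setd1b, Cxxc1, Ash2l, Kdm5a or Kdm5b. Of 15848 H3K4me3 peaks, 9 met this rule, 1 for each of 9 genes out of the 10 listed. Ash2l was the gene without an assigned peak. The X-linked and Y-linked KDM5 genes were not examined. All 9 peaks passed the filter on low values (a mean normalised count of 10 or more), as did 15039 peaks of the table.

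Controls (CtrlCre) were αMHC-Cre pos/+; Cpt1b +/+ mice and mutants (Cpt1bcKO) were αMHC-Cre pos/+; Cpt1b fl/fl mice, both adult and both on the C57BL/6 background, so that Cre was present in the 2 genotypes alike. The αMHC promoter drives Cre in CMs from embryonic stages onwards, and the CMs compared had therefore lacked Cpt1b, the muscle form of the gatekeeper for mitochondrial uptake of long-chain fatty acids, since before birth. Nuclei were sorted for the CM marker PCM1, and there were 3 H3K4me3 libraries per genotype. The 6 input libraries have no columns in the table and were not analysed here. The labels number the libraries without naming animals, while the study speaks of separate mice of each genotype where it sets RNA and H3K4me3 changes side by side. No source used here ties a library to an animal, so p-values measure the spread between these libraries.

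H3K4me3 sits around the start sites of active genes. In mammals it is deposited by 6 SET-domain methyltransferases, each working in a COMPASS-type complex. SETD1A and SETD1B are credited with much of the bulk H3K4me3 at promoters, KMT2A (MLL1) and KMT2B act at selected CpG-rich promoters, and KMT2C and KMT2D mainly place H3K4me1 at enhancers. All of them need a shared core of subunits that includes ASH2L, while CXXC1 (CFP1) belongs to the SETD1 complexes and binds unmethylated CpG dinucleotides. KMT2A and KMT2B carry a CXXC domain of the same kind. The KDM5 enzymes remove methyl groups from H3K4me3 and, as JmjC-domain dioxygenases, use oxygen, iron and α-ketoglutarate. The study related fatty acid oxidation to α-ketoglutarate and KDM5 activity, and the comparison here asks whether the mark at the genes of its own writers and erasers differed between the genotypes.

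Because the writers include CpG-binding proteins, the base sequence under 4 of the peaks is shown with every CG dinucleotide in capitals. The first is the 300 bases around the summit of the Setd1b peak, the peak whose H3K4me3 differed between genotypes, at chr5:123138502-123138801 of GRCm38 (plus strand). It lies 3542 bases upstream of the Setd1b start, in a peak that also overlaps the long noncoding RNA gene AI480526, and holds 16 CG. The others are the 250 bases before the RefSeq start (GRCm38.p6) of Kmt2c at chr5:25498784-25499033 (minus strand, 48 CG), of Kmt2a at chr9:44881290-44881539 (minus strand, 29 CG) and of Kdm5b at chr1:134559928-134560177 (plus strand, 13 CG). They were chosen as the most and the least CpG-rich of the 5 member promoters examined and the promoter of a gene for a CXXC-domain writer. Each is written 5′ to 3′ on the strand named.
Setd1b summit: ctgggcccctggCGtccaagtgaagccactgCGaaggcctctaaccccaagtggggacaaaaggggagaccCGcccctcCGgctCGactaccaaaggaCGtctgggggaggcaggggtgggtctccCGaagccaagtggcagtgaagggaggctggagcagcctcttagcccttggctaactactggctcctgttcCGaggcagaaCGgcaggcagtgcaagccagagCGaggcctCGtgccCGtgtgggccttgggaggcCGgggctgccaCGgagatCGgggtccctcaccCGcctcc
Kmt2c promoter: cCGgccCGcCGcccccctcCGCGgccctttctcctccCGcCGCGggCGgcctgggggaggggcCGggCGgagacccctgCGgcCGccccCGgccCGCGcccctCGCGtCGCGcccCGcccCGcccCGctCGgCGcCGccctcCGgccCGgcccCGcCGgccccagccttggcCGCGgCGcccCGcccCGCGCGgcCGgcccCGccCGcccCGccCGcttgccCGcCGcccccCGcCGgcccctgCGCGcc
Kmt2a promoter: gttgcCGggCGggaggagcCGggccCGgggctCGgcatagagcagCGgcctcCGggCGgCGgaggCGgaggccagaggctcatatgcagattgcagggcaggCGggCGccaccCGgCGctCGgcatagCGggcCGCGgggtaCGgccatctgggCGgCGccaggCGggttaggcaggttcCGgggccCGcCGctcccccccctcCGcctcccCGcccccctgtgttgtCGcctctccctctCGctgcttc
Kdm5b promoter: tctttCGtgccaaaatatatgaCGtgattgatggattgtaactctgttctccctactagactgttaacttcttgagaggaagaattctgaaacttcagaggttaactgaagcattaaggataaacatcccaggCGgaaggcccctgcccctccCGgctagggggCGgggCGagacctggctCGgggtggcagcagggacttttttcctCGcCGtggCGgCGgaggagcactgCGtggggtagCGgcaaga

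The same density can be stated for whole peaks. The 9 peaks held between 3.71 (Kmt2d) and 8.29 (Kmt2c) CG per 100 bases, with a median of 6.18 against 4.86 over all 15039 tested peaks, and 5 of 9 lay above that median. The Setd1b peak was among the CpG-poorer ones with 3.94 per 100 bases over its whole length, and its CG were unevenly placed. In bins of 500 bases the density reached 13.2 per 100 bases in the bin centred 240 bases downstream of the Setd1b start and 9.0 in a bin centred 3260 bases upstream of it, and fell to 1.0 at 7760 bases upstream. Promoters of 300 bases (250 before to 50 after the start) were taken from the RefSeq table for 5 of the 10 genes. These were Kdm5b, Kmt2a, Kmt2c, Kmt2d and Setd1a. Member promoters on chromosome 18, where Cxxc1 lies, were left out of this selection, so that Cxxc1 was not examined here. All 5 lay inside the peak of their gene, and they held 17 to 56 CG against a median of 7 over 32851 promoters. Searched on both strands with overlapping matches counted separately, the GC box GGGCGG occurred in 4 of the 5, with 12 matches in Kmt2c, 5 in Kmt2a, 4 in Kmt2d and 1 in Kdm5b. It occurred in 35.7% of all promoters of this length. None of the other motifs searched was found in the 5, which says only that these letters are not in these windows. Of all promoters, the CCAAT box was held by 37.4%, the TATA box (letters TATAAA) by 13.6% and the E-box (letters CACGTG) by 7.15%. The ETS core, searched as CCGGAAG, was held by 8.86%, the NRF1 core, searched as GCGCATGC, by 2.71%, and the YY1 core, searched as AAGATGGC, by 2.75%.

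The peaks of the writers and erasers were wide. Their median width was 3626 bases against 1514 for all tested peaks, and 8 of 9 fell in the broad class (above 2222 bases, the 75th percentile of tested widths). The Setd1b peak was the widest with 12.8 kb (chr5:123132184-123144935), wider than 99.9% of tested peaks and the 18th widest of them. Kdm5b (chr1:134555840-134561495) and Kmt2d (chr15:98867732-98872858) followed with 5.66 and 5.13 kb. Cxxc1 on chromosome 18 had the narrowest peak, 1.55 kb from position 74215664 to 74217216, close to the middle of all tested widths. All 9 peaks straddled the start of the gene, and most had their summit 170 to 994 bases downstream of it. The exceptions were Kmt2d, whose summit lay 647 bases upstream, and Setd1b.

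Position sets what can be ascribed to a gene. Of the Kdm5b peak, 76.6% lay outside the gene, on the upstream side, where no other gene is annotated. The Setd1b peak extended 10.0 kb upstream and 2.74 kb downstream of the Setd1b start, and 78.5% of it lay outside Setd1b. Besides 4 transcript starts of Setd1b it contained 4 starts of the protein-coding gene Rhof, a small GTPase gene on the opposite strand, 7 of AI480526, 2 of Gm38102 and 1 of 4932422M17Rik, the last 3 being long noncoding RNA genes. Its reads were deposited under the name of Setd1b but cannot be ascribed to Setd1b alone, and where within its 12.8 kb they fell is not given. The Kdm5a peak also held the start of Ccdc77, 232 bases into Kdm5a on the opposite strand, and the Kmt2a, Kmt2b, Kmt2c and Kmt2d peaks each contained the start of a noncoding RNA gene. Setd1a, Cxxc1 and Kdm5b were alone in their peaks. The mark carries no strand, so divergent starts cannot be separated.

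Values below are normalised read counts per peak, that is, reads in the peak divided by the size factor of the library. The 6 libraries held 763133 to 2766416 counts in peaks, and CtrlCre library 2 was the shallowest. Whole counts at the 9 peaks were at least 76 (Cxxc1 in CtrlCre library 2), and in that library counting error alone was between 6.7% (Setd1b) and 11.5% (Cxxc1) of the value. CM identity was checked on 7 CM marker genes (Myh6, Tnnt2, Actn2, Ryr2, Pln, Myl2, Tnni3), all of which had a peak. Their summed value was 6126 to 7496 in CtrlCre and 4481 to 6629 in Cpt1bcKO libraries, the lowest being Cpt1bcKO library 3. None passed the adjusted threshold, but Myh6 (log2 difference −0.39), Ryr2 (−0.32) and Myl2 (−0.29) had an unadjusted p under 0.05 in limma. Of the markers of other heart cells, 1 of 5 endothelial (Kdr), 1 of 5 fibroblast (Pdgfra), 1 of 3 mural (Cspg4) and 0 of 4 immune genes had a peak. Kdr was at 39 to 91 in CtrlCre and 31 to 51 in Cpt1bcKO, Pdgfra at 58 to 69 and 56 to 63, and Cspg4 at 42 to 84 and 16 to 38. None of these 3 passed the adjusted threshold, although Cspg4, whose groups did not overlap, came close to it (log2 difference −1.05, adjusted p = 0.061 by limma), and Kdr (−0.55) had an unadjusted p under 0.05. In all, 5 of the 10 marker peaks had an unadjusted p under 0.05, all 5 with a negative log2 difference, against 12.8% of all tested peaks. In bulk nuclei, fewer CMs bearing the mark and less mark per CM cannot be told apart. The peak of the targeted gene Cpt1b does not check the genotype, as its position against the floxed exons is not given here. Whether other genes start within it is not given either. The value of the Cpt1b peak was 428, 407 and 436 in CtrlCre and 572, 689 and 568 in Cpt1bcKO libraries, without overlap. This peak passed the test and was higher in Cpt1bcKO (log2 difference 0.52, standard error 0.10, adjusted p = 0.00357 by limma).

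**Figure D1:**
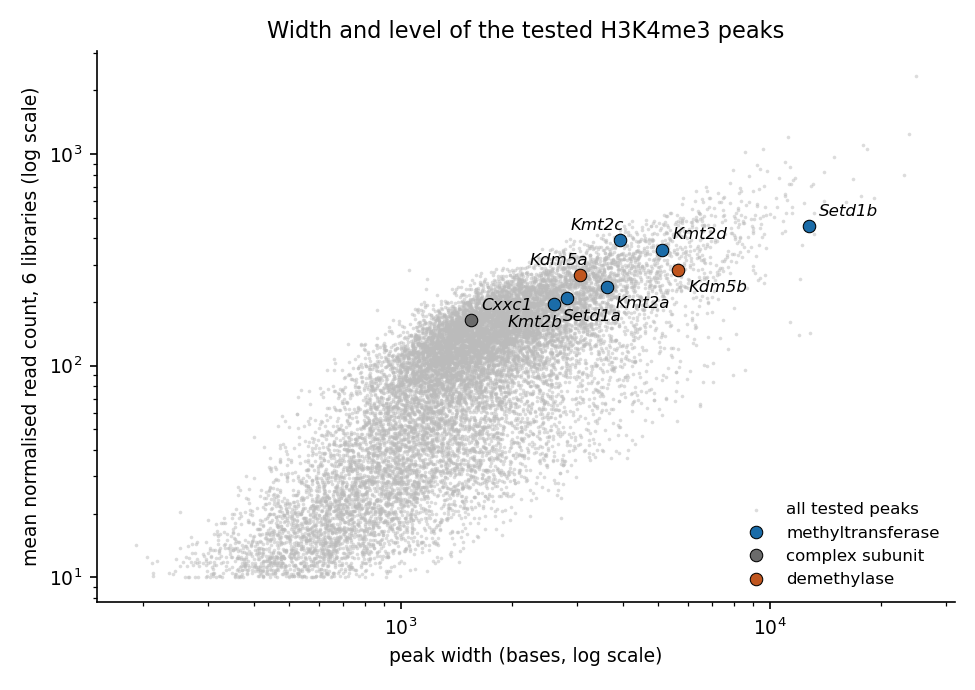
Width in bases (x axis, log scale) and mean normalised read count over the 6 libraries (y axis, log scale) of the 15039 tested peaks in grey, with the 9 writer and eraser peaks in colour by role. The 9 peaks lie on the high side of the cloud, and 8 of them also on the wide side. Setd1b is farthest to the right of the 9 at 12.8 kb. Cxxc1 is farthest to the left at 1.55 kb, close to the middle of all tested widths.

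Per kb of peak in CtrlCre, the order ran from Cxxc1 with 102 ± 13.7 normalised counts per kb (SD, n = 3) through Kmt2c (95.8 ± 6.88), Kdm5a (84.6 ± 4.09), Kmt2b (77.5 ± 7.33), Setd1a (74.0 ± 11.1), Kmt2d (71.1 ± 7.96), Kmt2a (61.0 ± 6.72) and Kdm5b (50.5 ± 6.03) down to Setd1b (42.0 ± 2.84). The median of all tested peaks was 60.5 normalised counts per kb. Neighbours in this order overlapped in their library values, with the exception of Kmt2c and Kdm5a, whose ranges of 91.5 to 104 and 80.7 to 88.9 per kb were apart. The widest peak was thus the least dense, and by total count the Setd1b peak stood above 98.9% of tested peaks but per kb above only 25.6%.

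Setd1b, the catalytic subunit of a SETD1 complex, was the 1 writer whose peak differed between the genotypes. Normalised counts were 511, 518 and 577 in CtrlCre libraries 1 to 3 and 382, 376 and 369 in Cpt1bcKO libraries 1 to 3. The groups did not overlap, and the 3 mutant libraries lay close together. The mean fell from 535 ± 36.3 to 376 ± 6.51 (SD, n = 3 each), that is, to 70.2% of the control mean. The log2 difference was −0.51 with a standard error of 0.09 and a 95% interval of −0.70 to −0.31 (adjusted p = 0.00225, limma with Benjamini-Hochberg adjustment over 15039 peaks). With 3 libraries against 3, an exact permutation test of 1 value cannot go below p = 0.1. At the level of all peaks, 2.93% passed the same test in either direction and 1.82% were lower in Cpt1bcKO, and a single called peak among 9 is too few to be read against those shares. Among the 3757 broad tested peaks 7.16% were called.

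Width bears on the comparison of Setd1b with other peaks. Of the 45 tested peaks of at least 10 kb, a limit chosen after values were seen, 7 were called, all of them lower in Cpt1bcKO (15.6%), and Setd1b was 1 of the 7. The median log2 difference of the 45 was −0.11, 33 of 45 were below 0, and Setd1b had the fourth lowest value. The nearest other peak was that of Tmem120b at a distance of 54814 bases. It had normalised counts of 128, 95 and 113 in CtrlCre and 102, 109 and 129 in Cpt1bcKO libraries (log2 difference 0.02, standard error 0.14, adjusted p = 0.979 by limma), and the groups overlapped. The CM markers, which also have wide peaks, had a median log2 difference of −0.28 over 7 peaks. Their part, and that of the other cell type markers, in the Setd1b result was not tested. With each library left out in turn, the Setd1b difference ran from −0.54 to −0.45.

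**Figure D2:**
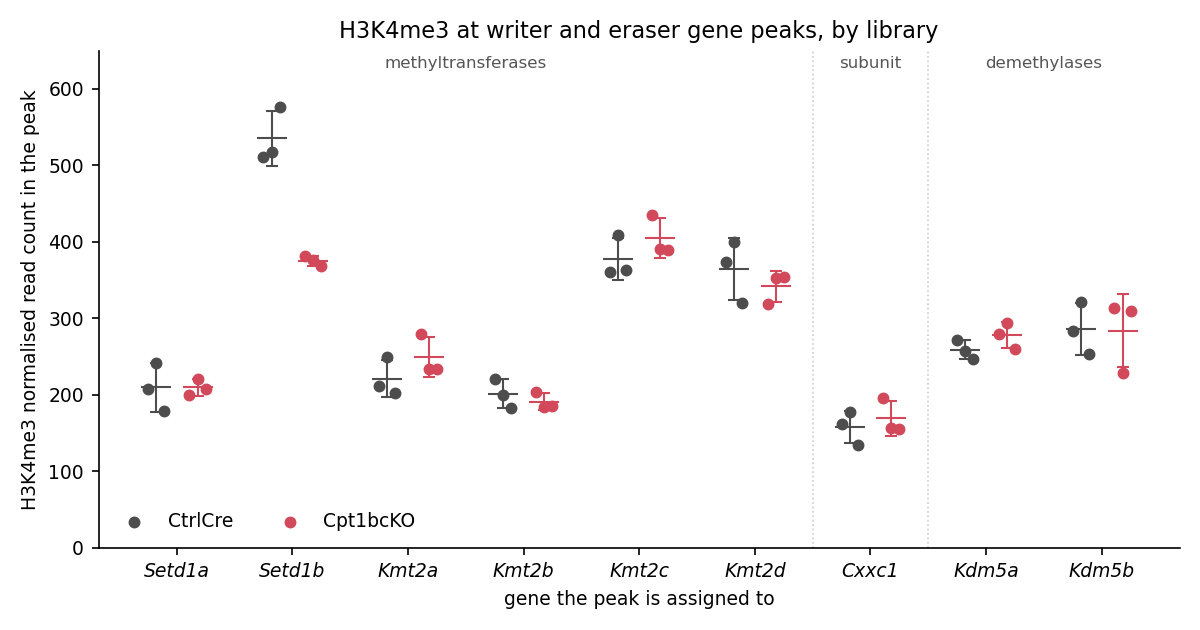
Normalised read count in each peak (y axis, from 0) for the 9 genes on the x axis, with 1 point per library, CtrlCre in grey and Cpt1bcKO in red. Horizontal lines and bars are the mean and SD of 3 libraries. The genotypes are apart at Setd1b (511 to 577 against 369 to 382) and overlap at the other 8 peaks.

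Setd1a, the paralog that forms the second SETD1 complex, is assigned a peak at chr7:127776149-127778982. Its values were 208, 242 and 179 in CtrlCre and 200, 221 and 208 in Cpt1bcKO libraries. The mutant libraries all lay inside the control range. The log2 difference was 0.01, with a 95% interval of −0.22 to 0.24 (adjusted p = 0.990, limma). The sign was not stable, and the value was −0.098 without CtrlCre library 3, −0.029 without Cpt1bcKO library 2 and −0.012 after quantile normalisation. Taken within a library, the ratio of the Setd1b to the Setd1a value was 2.46, 2.14 and 3.22 in CtrlCre and 1.91, 1.70 and 1.77 in Cpt1bcKO. These ratios did not overlap between the genotypes. They rest on the Setd1b values already given, so they add no separate support, and they were not tested.

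Kmt2a encodes MLL1, and its peak is at chr9:44879629-44883255. Values of 212, 249 and 203 in CtrlCre stood against 280, 234 and 234 in Cpt1bcKO libraries. Only Cpt1bcKO library 1 lay above all controls. The log2 difference of 0.17 (95% interval −0.05 to 0.39) did not pass the test (adjusted p = 0.559, limma). It was the highest of the 9 with all libraries, but without Cpt1bcKO library 1 it was 0.086 and lay under the 0.095 of Kdm5a. Kmt2b, which encodes the closest relative of MLL1, has its peak at chr7:30587312-30589910, with 221, 200 and 183 in CtrlCre and 204, 184 and 186 in Cpt1bcKO libraries. The groups overlapped throughout, with a log2 difference of −0.07 (95% interval −0.29 to 0.15, adjusted p = 0.858 by limma). The within-library ratio of Kmt2b to Kmt2a was 1.04, 0.803 and 0.901 in CtrlCre and 0.729, 0.786 and 0.795 in Cpt1bcKO, a narrow separation that was not tested.

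The peaks of Kmt2c and Kmt2d, the large enhancer-directed methyltransferases MLL3 and MLL4, had the highest counts after Setd1b in CtrlCre. Kmt2c (chr5:25496743-25500687) was at 361, 409 and 363 in CtrlCre and 435, 391 and 390 in Cpt1bcKO libraries, where only Cpt1bcKO library 1 exceeded every control. Its log2 difference was 0.10 (95% interval −0.10 to 0.30, adjusted p = 0.745 by limma). Kmt2d was at 374, 400 and 320 in CtrlCre and 319, 353 and 354 in Cpt1bcKO libraries, and here the first mutant library lay just under the lowest control. The log2 difference of −0.09 had a 95% interval of −0.30 to 0.12 (adjusted p = 0.807, limma). The ratio of Kmt2d to Kmt2c within a library ran from 0.882 to 1.04 in CtrlCre and from 0.733 to 0.908 in Cpt1bcKO, and the ranges overlapped.

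Cxxc1, the gene for the CpG-reading subunit of the SETD1 complexes, had values of 162, 177 and 135 in CtrlCre and 196, 157 and 156 in Cpt1bcKO libraries. The groups overlapped, and the log2 difference was 0.10 (95% interval −0.15 to 0.36, adjusted p = 0.816 by limma). Its sign rested on single libraries, at −0.0054 without CtrlCre library 3 and −0.0048 without Cpt1bcKO library 1. For Ash2l, which encodes a core subunit of all 6 methyltransferase complexes, a peak without a gene name was found over the gene at chr8:25839963-25841812, its centre 6807 bases inside the annotated 5′ end. It contains 6 of the 11 annotated Ash2l transcript starts. It was not counted among the 9, and its values were 220, 212 and 205 in CtrlCre and 197, 210 and 201 in Cpt1bcKO libraries (log2 difference −0.07, adjusted p = 0.855 by limma).

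Neither eraser gene differed beyond the spread between libraries. The study reported that expression of the Kdm5 genes did not change after Cpt1b inactivation, which is a separate measure. It reported the same for H3K4 methyltransferase genes, among them the Kmt2 family, without naming Setd1b in its text. Kdm5a (chr6:120363178-120366238), which encodes the founding member of the KDM5 demethylases, was at 272, 258 and 247 in CtrlCre and 280, 294 and 260 in Cpt1bcKO libraries. The mutant values tended to the upper side, with 1 of 3 inside the control range. The log2 difference was 0.10 (95% interval −0.10 to 0.30, adjusted p = 0.749 by limma). Kdm5b encodes the family member that the study overexpressed, knocked down and located with an antibody. The Kdm5b peak was at 283, 321 and 253 in CtrlCre and 313, 229 and 310 in Cpt1bcKO libraries. Cpt1bcKO library 2 stood below all controls while its 2 companions lay within the control range, which made Kdm5b the most variable of the 9 peaks in the mutants, with a coefficient of variation of 16.8%. The log2 difference of −0.02 had a 95% interval of −0.26 to 0.23 (adjusted p = 0.979, limma). It turned to 0.13 without that library, to 0.071 without CtrlCre library 2 and to 0.009 with limma-voom on counts. The within-library ratio of Kdm5b to Kdm5a was 1.04, 1.24 and 1.02 in CtrlCre and 1.12, 0.779 and 1.19 in Cpt1bcKO, with overlap.

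Across the 9 peaks, 5 log2 differences were above 0 and 4 below, with a median of 0.01 that equals the median of all tested peaks. At an unadjusted p under 0.05, 1 of 9 passed, against 12.8% of all tested peaks. Groups of values without overlap occurred at 1 of 9, against 16.3% of all tested peaks. For the 8 peaks other than Setd1b, the log2 differences ran from −0.09 to 0.17 and their 95% intervals stayed between −0.30 and 0.39. A p that misses the threshold does not show that the genotypes were alike, but changes beyond those bounds lie outside the intervals. The bounds hold for change relative to the other peaks, because size factors remove a shift shared by all peaks. The study reported lower total H3K4me3 in mutant CM nuclei by western blot, which these values cannot show. Precision was better at these peaks than on average, with a median standard error of 0.10 against 0.15 over all tested peaks.

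**Figure D3:**
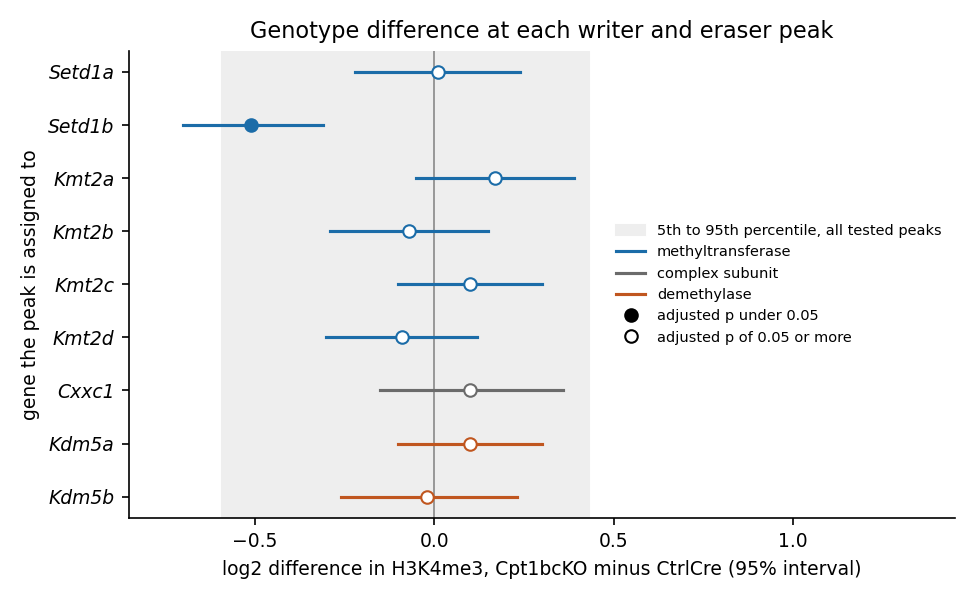
Log2 difference in H3K4me3 between Cpt1bcKO and CtrlCre (x axis, Cpt1bcKO minus CtrlCre) with its 95% interval for the 9 peaks, coloured by role. Filled points have an adjusted p under 0.05, and the grey band spans the 5th to 95th percentile (−0.59 to 0.43) of all tested peaks. Setd1b at −0.51 is the filled point, and the intervals of the other 8 peaks include 0.

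The wider pathway was read from 6 lists holding 52 genes that work with or beside these enzymes, of which 46 had an assigned peak. By limma 0 of the 46 passed the adjusted threshold, and by limma-voom on counts also 0. At an unadjusted p under 0.05 there were 4, of which 3 were higher in Cpt1bcKO, a share below the 12.8% of all tested peaks. The median log2 difference of the 46 was 0.03 and the range −0.30 to 0.31. Of 12 other subunits of COMPASS and MLL complexes 10 had a peak (median 0.03), of 7 other H3K4 methyltransferases 6 (median 0.09), and of 4 other H3K4 demethylases 3 (median 0.13). Of 8 subunits of the SIN3 corepressor, with which KDM5 enzymes associate, 7 had a peak (median −0.03). All 15 proteins that read H3K4me3 had one (median 0.04), as had 5 of 6 genes of the cycle that supplies S-adenosylmethionine, the methyl donor (median 0.00).

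The 6 genes with the smallest p are named, none of which passed the test. Smyd2, a SET-domain lysine methyltransferase gene, was at 115, 126 and 111 in CtrlCre and 141, 133 and 155 in Cpt1bcKO libraries, without overlap (log2 difference 0.28, adjusted p = 0.291 by limma). Men1 encodes menin, a subunit that ties MLL1 and MLL2 to their targets, and was at 104, 93 and 88 in CtrlCre and 123, 120 and 107 in Cpt1bcKO libraries, also without overlap (0.29, adjusted p = 0.335 by limma). Psip1 encodes LEDGF, which works with menin in the same complexes. The Psip1 peak pointed the other way, with 127, 151 and 112 in CtrlCre and 107, 96 and 111 in Cpt1bcKO libraries. Its groups did not overlap either (−0.30, adjusted p = 0.323 by limma). The differences at these 2 partner genes of MLL1 thus had opposite signs, and neither passed the test. Kdm1b, a flavin-dependent H3K4 demethylase gene, was at 132, 81 and 109 against 123, 142 and 129 (0.31, adjusted p = 0.377 by limma). Ing4, the gene of a PHD-finger reader of H3K4me3, was at 82, 67 and 101 against 97, 120 and 91 (0.31, adjusted p = 0.445 by limma). Ash1l, a SET-domain methyltransferase gene, was at 308, 370 and 318 against 297, 282 and 298, without overlap (−0.18, adjusted p = 0.466 by limma). In all, 4 of the 46 peaks had values without overlap, next to 16.3% of all tested peaks.

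**Figure D4:**
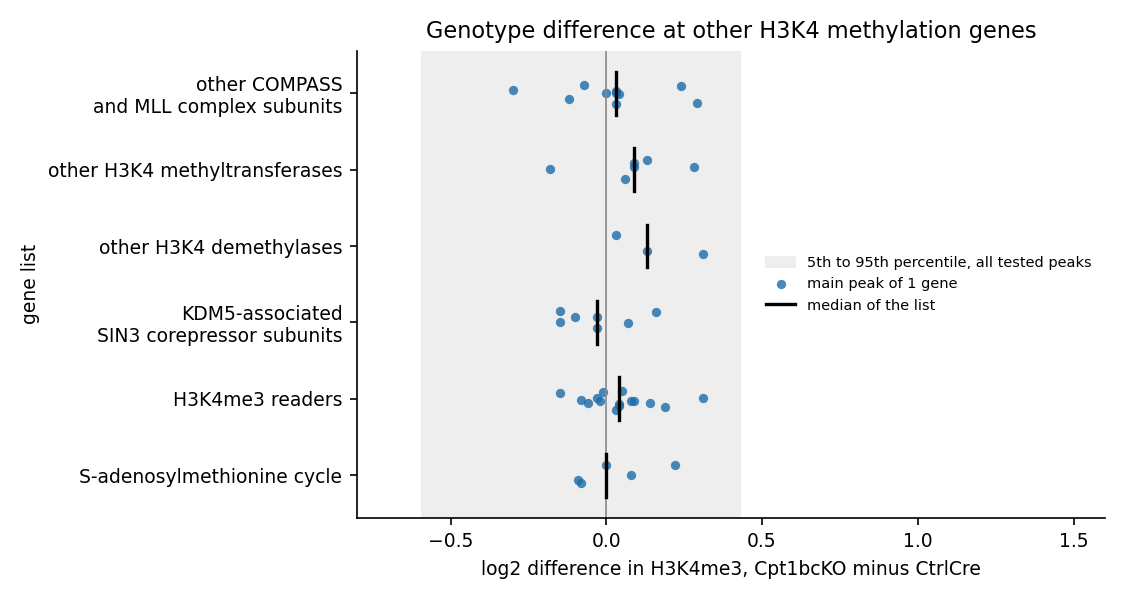
Log2 difference in H3K4me3 (x axis, Cpt1bcKO minus CtrlCre) at the main peak of each of 46 genes in 6 lists (rows), with 1 point per gene, shifted vertically for legibility, and a black bar at the median of each list. The grey band spans the 5th to 95th percentile of all tested peaks (−0.59 to 0.43). All 46 points lie inside the band, and the medians lie between −0.03 and 0.13.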

How the data were processed

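H3K4me3 chromatin immunoprecipitation and sequencing (ChIP-seq) of sorted adult CM nuclei was analysed from 1 table of peaks. Per the submitters' processing notes and the methods, reads were checked with FastQC 0.11.8, trimmed with Trimmomatic 0.39, aligned to mm10 (GRCm38) with STAR 2.6.1d and freed of duplicates with Picard 2.21.7, and MUSIC peaks called per library against input at a false discovery rate of 0.2 were merged over all libraries. The deposited value of a library in a peak is a count divided by a DESeq2 1.26.0 size factor and rounded to a whole number, which was treated as a score and not as a raw count. The authors also deposited the unrounded mean of each genotype, a signal used here only to recover counts, and the fraction of each peak inside its assigned gene. A peak carries the name of the gene whose promoter is nearest, up to 5000 bases away. The deposited fold changes and p-values were not used. Size factors assume that most peaks do not change, so a shift shared by all peaks is not visible, and peak widths are those of the union over both genotypes.

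Whole counts were recovered as those matching the rounded value and the genotype mean at once, with a single solution at 15848 of 15848 peaks. A floor of 3 counts equals a normalised value of 1.95 to 6.97, and counting errors and floors cover counting error only. Libraries were grouped by genotype from their titles. limma 3.58.1 (R 4.3.3) was fitted to log2(value + 1) of the 15039 peaks whose mean reached 10 (lmFit and eBayes with a trend, genotype alone, two-sided, Benjamini-Hochberg over all tested peaks), after a test on simulated data. Log2 differences are on that scale, which understates changes of low peaks. Alternatives were a pseudocount of 4, no filter, a mean of at least 50, quantile normalisation, limma-voom on recovered counts, the replicate number as a block, each library left out and, for genes with more than 1 peak, the widest peak. Summing the peaks of a gene changes nothing here, as each member has 1 peak. Annotation is GENCODE vM21 on GRCm38, and promoters are from RefSeq. The peak positions are as deposited and were taken as counted from 1.

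The members and gene lists were chosen with earlier results of these data known. Named are all member peaks, Cpt1b, the cell type markers and the pathway genes past the threshold or, as these were fewer than 6, the 6 with the smallest p.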

Additional observations from a re-analysis of the deposited data

How the results depend on the processing

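The Setd1b difference passed the adjusted threshold in 12 of 12 alternatives, with log2 differences from −0.54 to −0.45 and adjusted p from 0.000655 to 0.0202 (limma). The −0.54 came without CtrlCre library 1 and the −0.45 without CtrlCre library 3. In each alternative 1 member peak, that of Setd1b, and 0 pathway genes were called, and leaving out each library gave 1 to 1 and 0 to 0. The other 8 members gave 96 alternative values, none of them called, and 8 of the 96 changed sign, at Cxxc1, Kdm5b and Setd1a. Outside the libraries left out these were 0.009 at Kdm5b with limma-voom on recovered counts and −0.012 at Setd1a after quantile normalisation. With 1 library left out, Cxxc1 ranged from −0.0054 to 0.19 (−0.0048 without Cpt1bcKO library 1), Kdm5b from −0.10 to 0.13 (0.071 without CtrlCre library 2) and Setd1a from −0.098 to 0.12 (−0.029 without Cpt1bcKO library 2). The other members kept their sign but varied in size, with ranges of 0.086 to 0.26 at Kmt2a, −0.14 to −0.0014 at Kmt2b, 0.05 to 0.16 at Kmt2c, −0.18 to −0.018 at Kmt2d and 0.06 to 0.15 at Kdm5a. The cause was not tested.

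Deviations of same-numbered libraries of the 2 genotypes correlated at 0.076, −0.081 and 0.11, so that the numbers were not taken to pair libraries. With the replicate block, Setd1b stayed at −0.51 (adjusted p = 0.0129, limma) and the counts of 1 member and 0 pathway genes were unchanged. CtrlCre library 1 correlated best with Cpt1bcKO library 2 (0.11), not with its own number. Depth limits single values in CtrlCre library 2, where counting error at the members was 6.7% to 11.5%, while the spread between libraries of a genotype reached 16.8% (Kdm5b in Cpt1bcKO).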

Other observations

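Several genes of the pathway lists had no peak under their own name, but a peak of the table lay over them. Dpy30, a core subunit gene of the H3K4 methyltransferase complexes, had an unnamed peak at chr17:74315239-74317071 with 5 of its 6 annotated starts. Its normalised counts were 148, 144 and 142 in CtrlCre and 172, 158 and 165 in Cpt1bcKO libraries, without overlap (log2 difference 0.19, adjusted p = 0.489 by limma). Riox1, an α-ketoglutarate-dependent oxygenase gene, was covered by a peak deposited under the older symbol No66, with 135, 133 and 136 against 154, 126 and 164 (0.13, adjusted p = 0.746 by limma). A peak deposited under Fastkd3 held 8 of 9 starts of Mtrr, the gene of the enzyme that keeps methionine synthase active. Its values were 137, 112 and 150 in CtrlCre and 177, 156 and 162 in Cpt1bcKO libraries, without overlap (0.32, adjusted p = 0.223 by limma), and the divergent gene Fastkd3 starts in the same peak.

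Smyd1, a striated muscle methyltransferase gene, had 2 peaks over it. An unnamed peak with 3 of its 6 annotated starts was at 296, 232 and 289 against 280, 324 and 271 (0.10, adjusted p = 0.780 by limma). A peak deposited under Krcc1 was at 181, 165 and 182 against 208, 198 and 175 (0.13, adjusted p = 0.675 by limma). The latter held the start of Krcc1 and 0 of the 6 Smyd1 starts, so it cannot be read as a Smyd1 promoter value. Pagr1a, a subunit gene of the KMT2C and KMT2D complexes, shared a peak with Pagr1b at 257, 249 and 226 against 244, 241 and 250 (0.01, adjusted p = 0.991 by limma). Gatad1, whose product is a KDM5-associated reader, had a peak with an identifier alone at 106, 114 and 87 against 103, 72 and 106 (−0.14, adjusted p = 0.807 by limma). None of these peaks passed the test, and none was counted among the 46 genes.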
